A study of Drosophila melanogaster with 14 samples.

Results

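Antisense RNAs that gave a substantial number of reads in the wing imaginal disc of Drosophila melanogaster were described in wildtype and nub1 mutant larvae. Of 17807 genes in the RNA count table, 490 carry a FlyBase name for an antisense RNA (asRNA), and 64 of these had at least 300 reads summed over the 6 RNA libraries. These 64 RNAs were chosen by their total count, which is therefore a description here. The difference between genotypes was not used to choose them, but an RNA low in 1 genotype could enter through reads of the other. A further 344 antisense RNAs had 1 to 299 reads and 82 had none. At the edge of the threshold, CR46133, CR46135 and CR44179 had 300, 316 and 318 reads, whereas CR43864, CR33945 and CR43866, which overlap CG32801, betaGlu and Gal, had 297, 282 and 281 reads.

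A natural antisense RNA is made from the DNA strand opposite to another gene, so the RNAs of such a pair can share complementary sequence. Known actions of such RNAs in animals include interference between the transcription of both strands, pairing into double-stranded RNA that is edited or cut into small RNAs, and effects on chromatin. Most Drosophila genes with a CR number are annotated non-coding transcripts without a described function, so the overlapped genes, not the antisense RNAs, carry the known roles given here.

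Wildtype larvae were yw, and mutant larvae were yw with nub[1], an allele of nubbin, which encodes a transcription factor with a POU domain that acts in the wing. The y and w alleles were thus shared by both groups. Discs were dissected from late larvae of the wandering stage (the third instar) raised at 25 degrees, and each genotype had 3 libraries made with a directional kit. The labels do not say if each library had larvae of its own, and the p-values then reflect the scatter among libraries, possibly a technical one. Libraries held 58434785 to 83448836 counted reads. The nub1 replicate 3 stood apart from the other 2 nub1 libraries, with 32.1 and 24.7 chi-square per degree of freedom against 4.15 between those 2. Pairs of wildtype libraries had 15.6 to 17.7, so nub1 replicates 1 and 2 were closer to each other than any of these pairs. All 19 listed wing disc epithelium genes were at 1 CPM or more in every library, CPM being read counts scaled to a common library size. ATAC and ChIP libraries were not used.

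The antisense RNAs were a very small share of the RNA. All 490 together held 0.0301% of the counted reads, and the 64 held 89.6% of these. Their totals ran from 300 to 19439 reads with a median of 844, and the 6 with the most reads held 48.6% of the reads of all 64. Levels are CPM after TMM scaling, as mean ± SD of 3 libraries, which is a share of reads and is not corrected for transcript length. In wildtype discs 52 of the 64 were under 5 CPM and 6 were over 10 CPM, with a median of 1.80 CPM, and in nub1 discs the median was 1.95 CPM.

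The 64 genes were spread unevenly over the chromosome arms. The right arm of chromosome 2 held 18, the left arm of chromosome 3 held 10, the right arm of chromosome 3 held 14, X held 14, the small chromosome 4 held 5, and the left arm of chromosome 2 held 3. Arm 2L, which holds 18.4% of all antisense RNA genes in the table, thus held 4.69% of those with 300 reads or more, whereas chromosome 4 held 2.04% and 7.81%. Annotated spans ran from 296 bases (CR45000) to 18213 bases (bsAS), with a median of 1676.5 bases. Positions are those of RefSeq genes on dm6 (Release 6).

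Every one of the 64 overlapped a protein-coding gene, and the 64 genes overlapped most were all different. The longest overlap was taken as the pair in what follows, and it covered 83.3% of the antisense RNA's span in the median case. In 18 pairs the antisense RNA lay inside the gene's span, in 11 the gene lay inside the antisense RNA, in 34 the spans overlapped in part, and in 1 pair the spans were the same. A second gene was overlapped by 12 of the RNAs, and 8 overlapped 3 or more genes.

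Whether the counting used the strand of the reads is not stated, so reads of an antisense RNA and of the gene it overlaps may be mixed, and every value here is uncertain in that respect. The read counts themselves are shown pair by pair in the plot of counts. The overlapped gene had more reads in 44 pairs and fewer in 20. In 10 pairs the gene had under 5% of the antisense RNA's reads. Ucp4B, which encodes a mitochondrial carrier of the uncoupling protein family, had no read in any library, although CR43465, of the same span, had 1276. Balat, a beta-alanine transporter gene that lies inside CR43469, had 10 reads against 2446 for the RNA. Lcch3, a GABA receptor subunit gene, had 11 reads although CR45000, which lies wholly inside it, had 1170. In 30 pairs the overlapped gene had over 20 times the reads of the antisense RNA, 8 of them with the antisense RNA inside the gene. Exon positions were not used here, and which strand was counted was not tested.

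**Figure D1:**
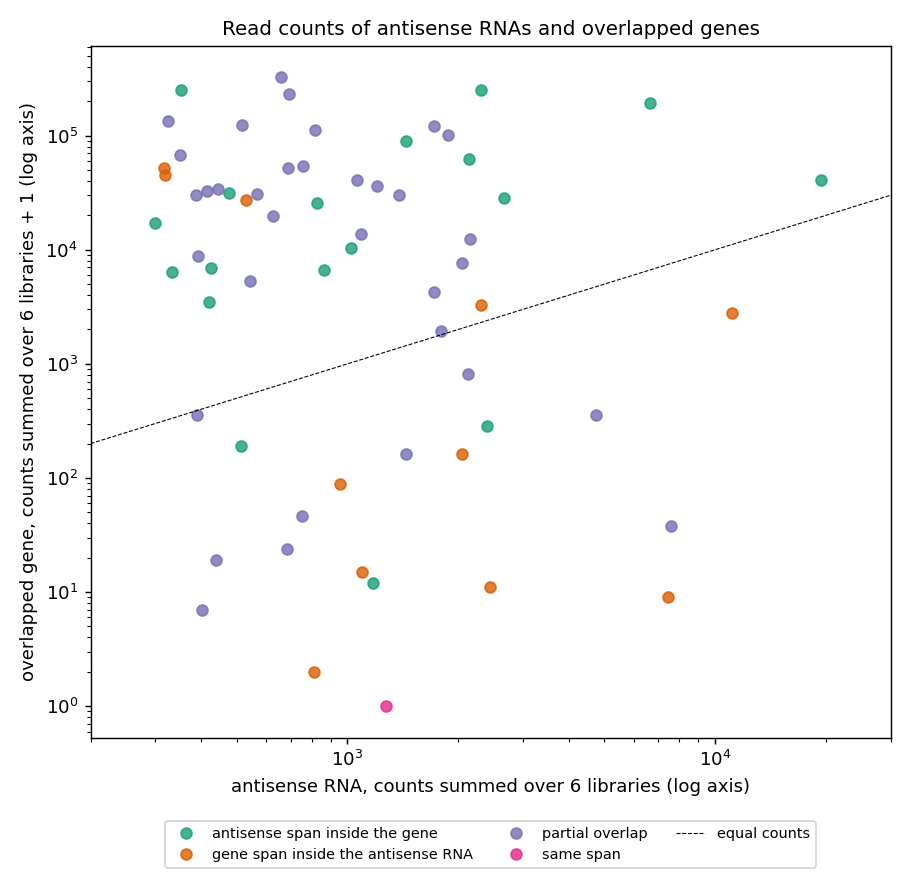
Reads summed over the 6 libraries for each of the 64 antisense RNAs (horizontal, log axis) and for the gene it overlaps most (vertical, reads plus 1, log axis), coloured by how the annotated spans lie. Of the 64 points, 44 lie above the dashed line of equal counts and 20 below, and the lowest point is CR43465 with Ucp4B, which had no read.

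Of the 64 antisense RNAs, 13 rose and 19 fell in nub1 discs, and 32 did not pass the test (edgeR quasi-likelihood test, adjusted p under 0.05 over 9186 genes). This is 50.0% of the 64, where 48.3% of all genes tested were called, 24.4% higher and 23.9% lower. The share over all 64 is thus near the background, but it differed by depth. Not called were 9 of the 30 RNAs with 1000 reads or more and 23 of the 34 with fewer reads. Among genes of 300 to 1000 reads 56.6% were called, among genes of 1000 to 20000 reads 49.2%, among the 113 long non-coding RNAs with 300 reads or more 55.8%, and among the 75 tested antisense RNAs with fewer reads 34.7%. A change of 2-fold or more was seen in 6 that rose and 7 that fell, 20.3% of the 64, where 10.2% of all genes changed as much, 5.51% upward and 4.74% downward. This share moves with depth. It was 7 of the 34 RNAs under 1000 reads, where 30.5% of all genes of 300 to 1000 reads changed as much, and 6 of the 30 RNAs with more, where it was 7.97% of genes of 1000 to 20000 reads. Of the 64, 10 had under 150 reads in 1 of the genotypes and so reached the threshold mainly through the other. Of these 10, 5 changed 2-fold or more: CR45146, CR45600, CR45164, CR45126 and CR44179. Their changes are in part tied to how the RNAs were chosen. The median size of the log2 fold change, whatever its sign, was 0.31 over the 64, 0.15 over all genes, 0.61 over genes of 300 to 1000 reads and 0.14 over genes of 1000 to 20000 reads, and the signed medians of the 64 and of all genes were -0.01 and -0.00. All 3 nub1 libraries lay above all 3 wildtype libraries for 19 of the RNAs and below for 23, 65.6% of the 64 against 60.0% of all genes, 29.7% above and 30.3% below. These are whole discs, so fewer cells of a type and less RNA per cell cannot be told apart.

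**Figure D2:**
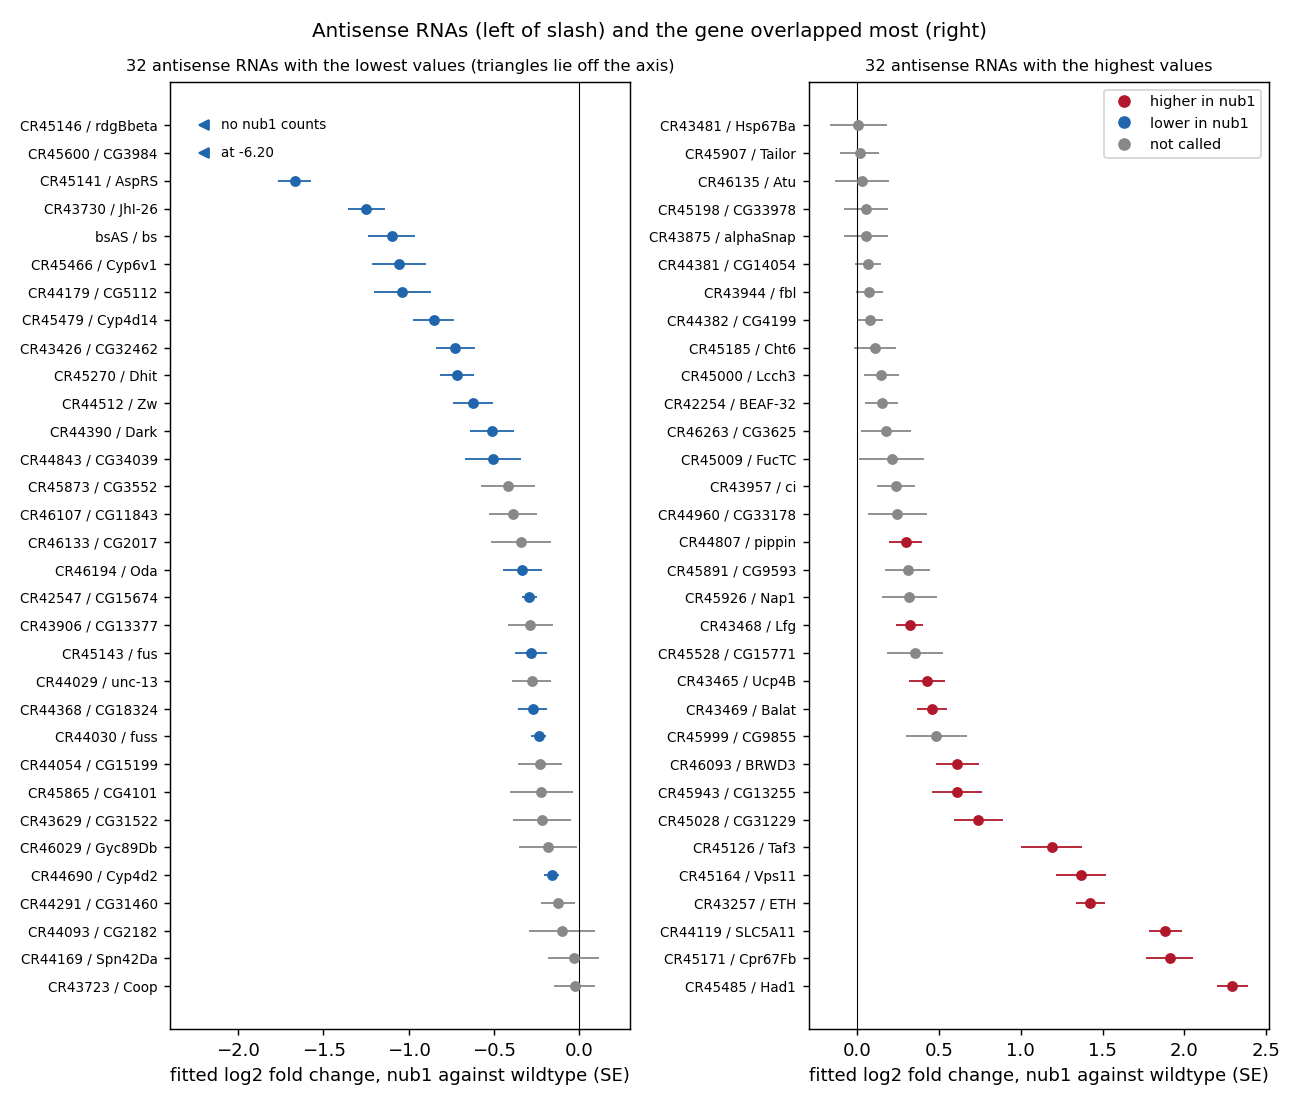
Fitted log2 fold change of each of the 64 antisense RNAs in nub1 against wildtype discs, with SE bars, named with the gene each overlaps most. Red points (13) rose, blue points (19) fell and grey points (32) did not pass the test; triangles mark 2 RNAs beyond the left axis, CR45600 at -6.20 and CR45146 with no nub1 reads.

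Most of the fall in the summed level of these RNAs came from 2 of them. Summed over all 64, the level was 312 ± 8.20 CPM (SD, n = 3) in wildtype discs and 234 ± 7.37 CPM (SD, n = 3) in mutant discs. Without bsAS and CR45600, the other 62 summed to 212 ± 1.92 and 204 ± 3.30 CPM. Of the 30 RNAs with 1000 reads or more, 7 rose and 14 fell, where 49.2% of all genes of 1000 to 20000 reads were called. Of the 34 with fewer reads 6 rose and 5 fell, where 56.6% of all genes of 300 to 1000 reads were called. On arm 2R 4 of 18 rose and 10 fell, where 51.8% of all genes tested on that arm were called in either direction. On X 1 of 14 rose and 4 fell (43.3% of all genes), on 3R 2 of 14 rose and 2 fell (46.6%), on 3L 3 of 10 rose and 2 fell (48.6%), on 2L 2 of 3 rose and none fell (51.7%), and on chromosome 4 1 of 5 rose and 1 fell (33.7%). Differences between arms were not tested.

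Markers of other cell types that a disc preparation can hold also differed between the groups. Summed over its list, trachea (4 genes, 2 called higher and 1 lower) had 840 to 891 CPM in wildtype and 1222 to 1283 CPM in nub1 libraries. That sum was made mostly by verm (501 and 802 CPM) and serp (265 and 380 CPM), both called higher. The other tracheal genes did not follow: trh fell from 83.8 to 59.6 CPM (log2 fold change -0.49 ± 0.04), and btl (14.3 and 16.1 CPM) was not called. Haemocytes (5 genes, 1 higher and 2 lower) had 904 to 1069 and 591 to 858 CPM, a sum made mostly by Ppn (983 and 723 CPM, adjusted p = 0.117). The haemocyte genes did not move together: NimC1 rose from 0.830 to 3.85 CPM, Hml was at 19.6 and 33.9 CPM (adjusted p = 0.0644), and srp and He fell. Muscle (3 genes, all higher) had 11.8 to 12.9 and 28.9 to 34.3 CPM, and salivary gland (4 genes, all lower) 6.35 to 7.71 and 1.75 to 2.53 CPM. The glial gene repo, which was lower, had 0.146 to 0.332 and 0.0353 to 0.0690 CPM. Summed ranges overlapped between the groups for fat body (4 genes, 1 higher and 1 lower), at 14.9 to 42.9 and 14.3 to 16.7 CPM, for myoblasts (5 genes, 2 higher and 1 lower) and for the wing disc epithelium (19 genes, 5 higher and 9 lower). Within these sums single genes moved apart, such as htl (0.67 ± 0.03) and Him (-0.61 ± 0.15) of the myoblasts and zfh2 (0.62 ± 0.03), nub (-4.92 ± 0.25), dve (-1.80 ± 0.05) and en (-0.97 ± 0.04) of the epithelium. The summed neuron list (4 genes) was 38.5 to 42.0 and 43.2 to 43.7 CPM, and the male germ line list (4 genes) 1.04 to 1.52 and 0.823 to 1.01 CPM. No marker was at 0 over all libraries. The part of these cells in the changes of antisense RNAs was not tested.

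The antisense RNA CR45146 (FBgn0266639, 2R, 17697532 to 17698796) had reads in wildtype discs and none in nub1 discs. It had 174, 137 and 232 reads in wildtype replicates 1 to 3, or 2.68 ± 0.250 CPM, and 0 reads in each nub1 library. With a floor of 3 reads over the nub1 group it was at least 211-fold lower (edgeR adjusted p = 1.99e-06). Its 543 wildtype reads alone took it past the threshold of 300, so it was chosen through the group where it was high. It overlaps rdgBbeta, a phosphatidylinositol transfer protein gene, by 831 bases. That gene stood at 12.2 CPM in both groups, with a log2 fold change of 0.00 ± 0.05 (SE; adjusted p = 0.992). The gene swi2, which lies 2179 bases from CR45146 without overlap, fell from 8.29 to 0.0971 CPM (log2 fold change -6.38 ± 0.15, adjusted p = 6.9e-09).

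A further RNA, CR45600 (FBgn0267160, 3R, 15136985 to 15140121), was nearly lost. Its level was 37.1, 36.7 and 36.0 CPM in the wildtype libraries and 0.428, 0.586 and 0.470 CPM in the nub1 libraries, a log2 fold change of -6.20 ± 0.08 (SE; edgeR adjusted p = 2.07e-10). The groups lay far apart, and each varied little within itself. The span of CR45600 covers CG3984, which had 8 reads in all, and touches CG3987, which had 3. It also shares 20 bases with CG6912, which fell from 24.7 to 0.155 CPM (-7.31 ± 0.12, adjusted p = 5.39e-10). The log2 ratio of CR45600 to CG6912 was 1.09 ± 0.29 higher in nub1 discs (limma adjusted p = 0.0223 over 153 pairs), so the gene fell by more than the RNA.

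The antisense RNA with the most reads was bsAS (FBgn0266046, 2R, 24351477 to 24369689), which lies wholly within the span of blistered. The gene blistered (bs) encodes the serum response factor of the fly, which sets intervein fate in the wing. The level of bsAS was 70.7, 61.6 and 57.3 CPM in wildtype and 33.1, 30.9 and 24.7 CPM in nub1 libraries, a log2 fold change of -1.10 ± 0.14 (SE; edgeR adjusted p = 0.00215). The gene bs was at 134, 135 and 125 CPM and at 71.2, 64.6 and 52.1 CPM in the same libraries, a log2 fold change of -1.07 ± 0.12 (adjusted p = 0.00151). RNA and gene thus fell by similar amounts, and in both the lowest nub1 library was replicate 3. The log2 ratio of bsAS to bs differed by -0.02 ± 0.13 between the genotypes (limma adjusted p = 0.911), which does not show that the ratio was equal.

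Another 4 RNAs fell by 2-fold or more. CR45141 (2R, 12881445 to 12883253), which overlaps AspRS, the gene of aspartyl-tRNA synthetase, was at 6.49, 6.21 and 6.09 CPM in wildtype and 2.01, 2.15 and 1.75 CPM in nub1 libraries (-1.67 ± 0.10, adjusted p = 2.18e-06), whereas AspRS was at 274 and 281 CPM (0.04 ± 0.03). The wing selector gene vg lies 948 bases from CR45141 and fell by 0.27 on the log2 scale. CR43730 (2R, 16288927 to 16291474), whose span covers the juvenile hormone inducible gene JhI-26, was at 3.33, 2.94 and 3.28 CPM and 1.41, 1.29 and 1.33 CPM (-1.25 ± 0.11, adjusted p = 2.95e-05). CR45466 (X, 20656891 to 20657678), which overlaps the cytochrome P450 gene Cyp6v1, was at 1.75, 1.84 and 1.83 CPM and 0.773, 1.06 and 0.776 CPM (-1.06 ± 0.16, adjusted p = 0.000664). CR44179 (3R, 25491285 to 25493262), which covers CG5112, was at 1.07, 0.892 and 1.05 CPM and 0.441, 0.508 and 0.517 CPM (-1.04 ± 0.17, adjusted p = 0.00104). None of these RNAs had a nub1 library above any of its wildtype libraries. Both Cyp6v1 (0.04 ± 0.04) and CG5112 (-0.22 ± 0.03) changed far less than the RNA, the latter past the test.

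In all, 6 RNAs rose by 2-fold or more. CR45485 (FBgn0267041, X, 16307032 to 16308687), which overlaps Had1, a dehydrogenase gene, was at 1.66, 1.54 and 1.38 CPM in wildtype and 7.08, 7.54 and 7.71 CPM in nub1 libraries, a log2 fold change of 2.29 ± 0.09 (SE; edgeR adjusted p = 2.55e-07). CR45171 (3L, 10893646 to 10894743), which covers the cuticle protein gene Cpr67Fb, was at 0.649, 0.770 and 0.806 CPM and 2.44, 2.96 and 3.00 CPM (1.91 ± 0.15, adjusted p = 1.2e-05), while Cpr67Fb had 1 read in all. CR44119 (2L, 8201557 to 8205298), which overlaps SLC5A11, a sodium-coupled solute transporter gene, was at 1.46, 1.85 and 1.72 CPM and 6.17, 6.02 and 6.41 CPM (1.88 ± 0.10, adjusted p = 1.37e-06). In all 3 RNAs every nub1 library was well above every wildtype library.

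The other RNAs of this size were CR43257, CR45164 and CR45126. CR43257 (2R, 24793807 to 24795772), which covers the ecdysis triggering hormone gene ETH, was at 2.89, 2.43 and 2.97 CPM in wildtype and 7.35, 7.57 and 7.43 CPM in nub1 libraries (1.43 ± 0.09, adjusted p = 3.2e-06), whereas ETH was at 7.37 and 7.51 CPM (0.03 ± 0.09). CR45164 (3L, 23149530 to 23150668), which overlaps Vps11, a gene of the vacuolar tethering machinery, was at 0.503, 0.577 and 0.476 CPM and 1.34, 1.29 and 1.38 CPM (1.37 ± 0.15, adjusted p = 0.000124). CR45126 (chromosome 4, 459768 to 461413), which overlaps Taf3, a subunit gene of the transcription factor TFIID, was at 0.373, 0.525 and 0.427 CPM and 0.966, 0.938 and 1.11 CPM (1.19 ± 0.18, adjusted p = 0.00084). Neither Vps11 (-0.08 ± 0.04, adjusted p = 0.126) nor Taf3 (-0.07 ± 0.03, adjusted p = 0.0914) passed the test. Leaving out wildtype replicate 2 took Taf3 past it, at -0.08 and an adjusted p of 0.0394.

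**Figure D3:**
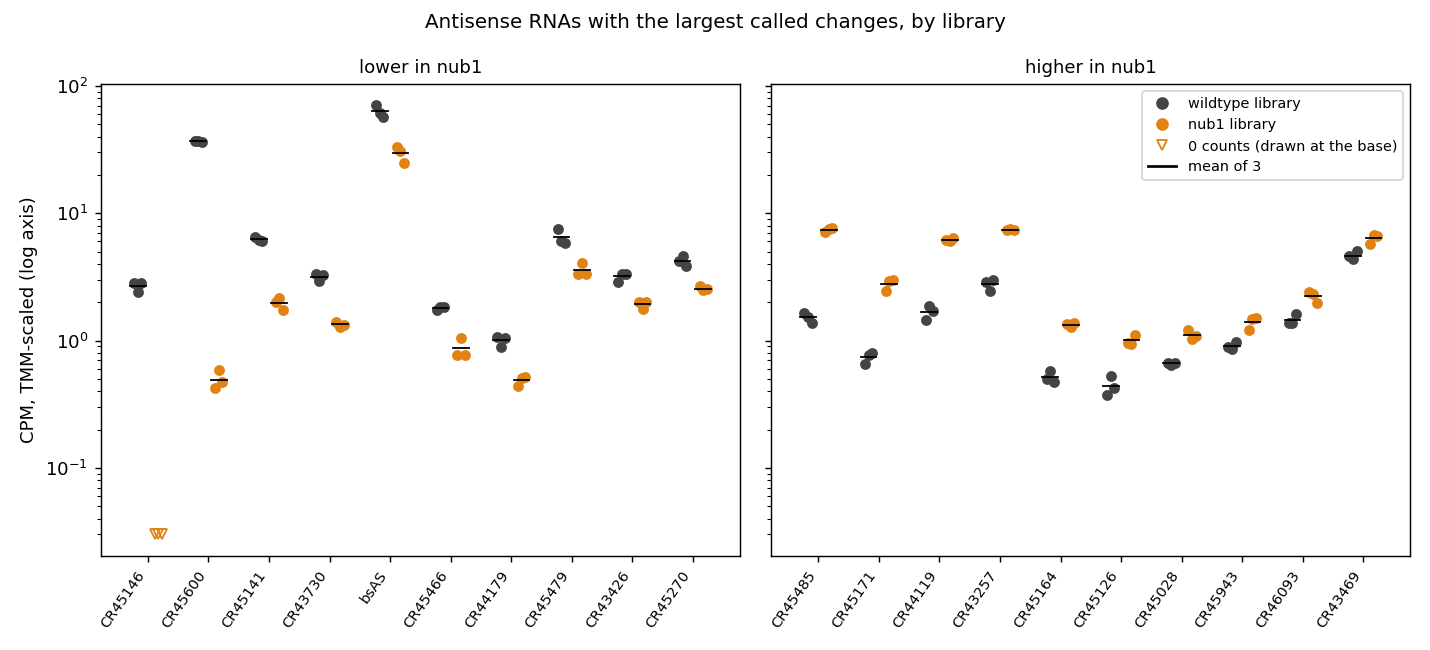
CPM in each library for the antisense RNAs that changed most, with wildtype and nub1 libraries as separate points. For each RNA drawn, the 3 nub1 points lie all above or all below the 3 wildtype points, which was part of the rule that chose them.

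Smaller rises were found in 7 RNAs. CR45028, which overlaps CG31229, rose from 0.661 ± 0.0128 to 1.11 ± 0.0865 CPM (0.74 ± 0.15), CR45943, inside CG13255, from 0.909 ± 0.0616 to 1.39 ± 0.167 CPM (0.61 ± 0.15), and CR46093, which overlaps BRWD3, a bromodomain and WD repeat gene, from 1.45 ± 0.139 to 2.23 ± 0.224 CPM (0.61 ± 0.13). CR43469, which covers Balat, rose from 4.66 ± 0.343 to 6.39 ± 0.547 CPM (0.46 ± 0.09). CR43465, of the same span as Ucp4B, rose from 2.47 ± 0.0794 to 3.32 ± 0.394 CPM (0.43 ± 0.11), with an adjusted p of 0.0125 that became 0.0518 without nub1 replicate 2. CR43468, which covers Lfg, a gene of the Lifeguard family of cell death inhibitors, rose from 4.16 ± 0.271 to 5.19 ± 0.234 CPM (0.32 ± 0.08). Its call was lost without both libraries numbered 3, with an adjusted p of 0.0623. CR44807, inside pippin, rose from 2.09 ± 0.0751 to 2.57 ± 0.0991 CPM (0.30 ± 0.10, adjusted p = 0.038). The last call was lost when any 1 library was left out, with adjusted p from 0.0513 to 0.115, with no filter (0.063) and with DESeq2 (0.102).

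Smaller falls were found in 12 RNAs, among them several with many reads. CR45479, which overlaps the cytochrome P450 gene Cyp4d14, fell from 6.47 ± 0.893 to 3.58 ± 0.397 CPM (-0.85 ± 0.12). CR43426, which covers CG32462, fell from 3.20 ± 0.280 to 1.93 ± 0.139 CPM (-0.73 ± 0.11), and CR45270 (2R, 17795886 to 17801924), which overlaps Dhit, from 4.23 ± 0.383 to 2.56 ± 0.112 CPM (-0.72 ± 0.10). The span of CR45270 also shares 793 bases with grainyhead (grh), an epithelial transcription factor gene, which fell less, from 671 to 591 CPM (-0.18 ± 0.03). CR44512, which overlaps Zw, the glucose-6-phosphate dehydrogenase gene, fell from 6.11 ± 1.03 to 3.97 ± 0.101 CPM (-0.62 ± 0.12), and CR44390, which overlaps Dark, the apoptosome adaptor gene, from 3.30 ± 0.515 to 2.32 ± 0.142 CPM (-0.51 ± 0.13). CR42547, which overlaps CG15674, fell from 19.4 ± 0.356 to 15.8 ± 0.577 CPM (-0.29 ± 0.04), and CR44030, which overlaps fuss, a gene of the Ski and Sno family of transcriptional regulators, from 11.8 ± 0.159 to 10.1 ± 0.0709 CPM (-0.24 ± 0.05).

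In 5 of the 12 the call depended on single libraries, and in 4 of these also on the scaling or the test. CR44690, which covers the cytochrome P450 gene Cyp4d2 and had the second largest number of reads, went from 27.0 ± 0.792 to 24.2 ± 1.20 CPM (-0.16 ± 0.05, adjusted p = 0.018). Without wildtype replicate 1 or 3 the adjusted p was 0.0602 and 0.0595. CR46194, inside the ornithine decarboxylase antizyme gene Oda, went from 5.96 ± 0.0336 to 4.73 ± 0.781 CPM (-0.33 ± 0.11, adjusted p = 0.0393), and kept its call only without nub1 replicate 2, with 0.0575 to 0.0953 without any other library, 0.0531 with upper quartile scaling and 0.0546 with library sizes alone. CR45143, which overlaps the splicing regulator gene fus, went from 4.79 ± 0.347 to 3.95 ± 0.333 CPM (-0.28 ± 0.10, adjusted p = 0.0372), and kept its call only without nub1 replicate 1, with 0.0523 to 0.127 otherwise and 0.0599 with DESeq2. CR44368, which overlaps CG18324, went from 4.33 ± 0.293 to 3.60 ± 0.0509 CPM (-0.27 ± 0.08, adjusted p = 0.0261), and kept its call only without wildtype replicate 2, with 0.0519 to 0.106 otherwise and 0.0589 with DESeq2. CR44843, inside CG34039, went from 1.16 ± 0.147 to 0.819 ± 0.0786 CPM (-0.50 ± 0.16, adjusted p = 0.0313), and kept its call only without wildtype replicate 1, with 0.0519 to 0.113 otherwise and 0.085 with DESeq2.

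The 32 RNAs that did not pass the test had log2 fold changes between -0.41 and 0.48. In 10 of them the groups of libraries did not overlap. Separation without a call is common, as 60.0% of all genes tested had groups apart and 48.3% were called. Among the 32, CR44029, CR43944 and CR44381 had many reads. CR44029, inside the synaptic vesicle priming gene unc-13, was at 17.1 ± 2.36 and 14.1 ± 1.35 CPM (-0.28 ± 0.11, adjusted p = 0.0845). CR43944, inside the pantothenate kinase gene fbl, was at 5.94 ± 0.562 and 6.26 ± 0.220 CPM (0.07 ± 0.08). CR44381, inside CG14054, was at 5.36 ± 0.370 and 5.62 ± 0.311 CPM (0.07 ± 0.08). Leaving out wildtype replicate 3 took CR44029 past the test, at -0.38 and an adjusted p of 0.00781, and so did DESeq2 on all libraries, at 0.0324. CR43957 overlaps ci, the transcription factor gene of Hedgehog signalling, and stood at 1.38 ± 0.0158 and 1.63 ± 0.0582 CPM without overlap of the groups (0.24 ± 0.12, adjusted p = 0.122), while ci rose by 0.26 ± 0.03 (adjusted p = 0.000336).

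Among the rest, RNAs with a value above 0 were CR45185 with the chitinase gene Cht6 (0.11), CR44382 with CG4199 (0.08), CR45000 with Lcch3 (0.15), CR42254 with the insulator protein gene BEAF-32 (0.15), CR45891 with CG9593 (0.31), CR46263 with CG3625 (0.18), CR45198 with CG33978 (0.05), CR45907 with the uridylyltransferase gene Tailor (0.02), CR45528 with CG15771 (0.35), CR43481 with the small heat shock protein gene Hsp67Ba (0.01), CR43875 with alphaSnap (0.06), CR44960 with CG33178 (0.25), CR45009 with FucTC (0.21), CR45999 with CG9855 (0.48), CR45926 with the nucleosome assembly gene Nap1 (0.32) and CR46135 with Atu (0.03). Those with a value below 0 were CR43906 with CG13377 (-0.28), CR44291 with CG31460 (-0.12), CR43723 with Coop (-0.03), CR46029 with the guanylyl cyclase gene Gyc89Db (-0.18), CR44054 with CG15199 (-0.23), CR44169 with the serpin gene Spn42Da (-0.03), CR43629 with CG31522 (-0.22), CR45873 with CG3552 (-0.41), CR46107 with CG11843 (-0.39), CR44093 with CG2182 (-0.10), CR45865 with CG4101 (-0.22) and CR46133 with CG2017 (-0.34). Leaving out 1 library took 4 of these past the test. Without nub1 replicate 1 the adjusted p was 0.0413 for CR45891 and 0.0236 for CR45999, and it was 0.024 for CR43906 without wildtype replicate 1 and 0.044 for CR45873 without wildtype replicate 2.

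The genes overlapped by these RNAs were called about as often as other genes. Of the 64 overlapped genes 54 had enough reads to be tested, 12 rose and 14 fell, which is 48.1% against the 48.3% of all genes tested. RNA and gene were both called in 13 of the 54 pairs, the RNA alone in 13, the gene alone in 13 and neither in 15. Both moved the same way in 8 pairs. In 2 of these, CR44119 with SLC5A11 and CR43468 with Lfg, both rose, and in 6 both fell: bsAS with bs, CR44690 with Cyp4d2, CR46194 with Oda, CR44512 with Zw, CR44390 with Dark and CR44179 with CG5112. Of these, the calls on CR43468, CR44690, CR46194 and Zw were not stable, as given beside each. RNA and gene moved in opposite ways in 5 pairs. Of their calls, those on CR44807, pippin, CG31229 and fuss were not stable, as given beside each. In CR45485 with Had1, CR44807 with pippin and CR45028 with CG31229 the RNA rose and the gene fell, and in CR44030 with fuss and CR43730 with JhI-26 the RNA fell and the gene rose. Across the 54 pairs, Pearson's correlation of the log2 fold changes was -0.06 and Spearman's was 0.11, a description only, since the pairs come from the same libraries and may share reads.

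Some of the calls on overlapped genes depended on single libraries. The call on Zw (-0.11 ± 0.04, adjusted p = 0.0479) was kept only without wildtype replicate 3, with 0.0852 to 0.169 without any other library. It was also lost under every other scaling, filter and test without a block, from 0.0542 with a filter of 1 CPM to 0.132 with library sizes alone. BEAF-32 (0.07 ± 0.03, adjusted p = 0.0439) lost its call without any 1 library, with 0.0669 to 0.137, with no filter (0.0673) and with DESeq2 (0.0649). Tailor (0.09 ± 0.03, adjusted p = 0.0464) kept its call only without wildtype replicate 2, with 0.0549 to 0.118 otherwise. CG31522 (0.11 ± 0.03, adjusted p = 0.0258) had 0.0605 to 0.066 without nub1 replicate 2 or 3 or wildtype replicate 1 or 2. CG31460 (-0.16 ± 0.04, adjusted p = 0.0191) had 0.068 without nub1 replicate 2. For pippin (-0.19 ± 0.05, adjusted p = 0.0194) it was 0.0527 with library sizes alone and 0.0613 to 0.0829 without nub1 replicate 1 or 2 or wildtype replicate 1 or 3, and for CG31229 (-0.18 ± 0.06, adjusted p = 0.0254) 0.0532 to 0.0722 without nub1 replicate 2 or 3 or wildtype replicate 2.

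**Figure D4:**
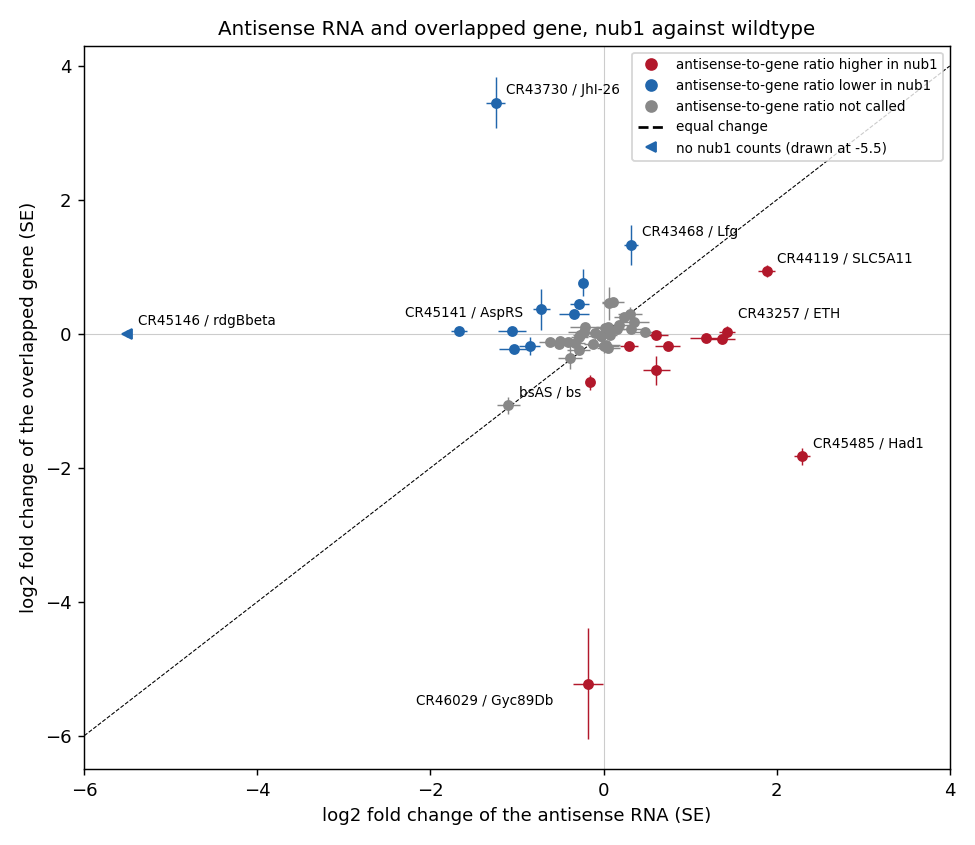
Log2 fold change of the antisense RNA (horizontal) and of the gene it overlaps most (vertical) in nub1 against wildtype discs for the 54 pairs with both tested, with SE bars. Red and blue points are pairs whose ratio was higher (11) or lower (11) in nub1 discs; bsAS with bs lies on the dashed line of equal change, and CR45485 with Had1 and CR43730 with JhI-26 lie in the opposite corners.

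To ask whether an RNA and its overlapped gene changed by different amounts, the log2 ratio of their counts, each plus 0.5, was tested in all 153 overlapping pairs of an antisense RNA and another gene where both had enough reads (limma, adjusted over the 153 pairs). In nub1 discs the ratio was higher in 11 and lower in 11 of the 54 pairs, 40.7%, where 41.8% of all pairs were called, 22.2% higher and 19.6% lower. The ratio needs no scaling between libraries.

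In CR45485 and Had1 the 2 sides moved apart. While the RNA rose, Had1 fell from 31.1, 31.0 and 24.5 CPM in wildtype to 9.02, 8.22 and 7.12 CPM in nub1 libraries (-1.83 ± 0.13, adjusted p = 6.85e-05). The log2 ratio went from -4.23 to -0.12, a difference of 4.11 ± 0.16 (SE; limma adjusted p = 2.47e-06). CG3679, which shares 346 bases with CR45485, rose by 0.16 ± 0.03 on the log2 scale (edgeR adjusted p = 0.00487).

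In CR43730 and JhI-26 the opposite was seen. JhI-26 had 2 reads in each wildtype library and 20, 27 and 34 in the nub1 libraries (log2 fold change 3.45 ± 0.38, edgeR adjusted p = 0.000119), while the RNA fell. Their log2 ratio went from 6.40 to 1.97, a difference of -4.43 ± 0.23 (SE, limma adjusted p = 1.42e-05). With so few reads of JhI-26 the size is uncertain, and it ran from -4.61 to -3.82 over the alternatives. The gene CG30099, which shares 43 bases with CR43730, fell with it, from 1.45 to 0.392 CPM (-1.88 ± 0.19), and so did CG30324, which lies 694 bases away, from 0.760 to 0.211 CPM (-1.84 ± 0.28).

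In other pairs only the gene passed the test. Gyc89Db, an atypical soluble guanylyl cyclase gene, had 12, 20 and 12 reads in wildtype and 1, 0 and 0 reads in nub1 libraries, a level 51.4-fold lower (counting interval at 95%, 8.75 to 2075). The RNA CR46029, which overlaps it by 3741 bases, had 84, 112 and 176 reads and 115, 128 and 136 reads, and the log2 ratio was higher in nub1 discs (limma adjusted p = 0.00086). With so few reads of the gene the size of the difference depends on the count added, 4.44 with 0.5 and 2.92 with 2. CR44029 and unc-13 differed by -0.73 ± 0.15 (adjusted p = 0.00881, or 0.0507 without both libraries numbered 3), as unc-13 rose from 371 to 506 CPM. CG2017 rose from 35.1 to 43.3 CPM (0.30 ± 0.04), and the log2 ratio of CR46133 to CG2017 was lower (adjusted p = 0.0107). Without both libraries numbered 3 that ratio had an adjusted p of 0.12. A second gene overlapped by CR44169, the serpin gene Spn42Db, had 0.209 and 0.0783 CPM. The log2 ratio of CR44169 to Spn42Db was 1.36 ± 0.34 higher in nub1 discs (adjusted p = 0.0151). The call on Spn42Db itself (-1.40 ± 0.38, edgeR adjusted p = 0.0155) did not hold without nub1 replicate 3 or wildtype replicate 2, with 0.053 and 0.0541, nor with DESeq2, with 0.0656.

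The ratio was also called in 8 other pairs whose antisense RNA changed 2-fold or more. It was higher in nub1 discs for CR45164 with Vps11 (1.44 ± 0.15), CR43257 with ETH (1.41 ± 0.14), CR45126 with Taf3 (1.24 ± 0.18) and CR44119 with SLC5A11 (0.95 ± 0.14), the last although SLC5A11 itself rose from 3.01 to 5.73 CPM. It was lower for CR45146 with rdgBbeta (adjusted p = 2.44e-08), CR45141 with AspRS (-1.71 ± 0.14), CR45466 with Cyp6v1 (-1.11 ± 0.17) and CR44179 with CG5112 (-0.81 ± 0.15). These pairs kept their calls when any 1 library was left out.

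The remaining 9 called ratios belonged to RNAs that changed less. The ratio was higher for CR45943 with CG13255 (1.12 ± 0.13) and CR45028 with CG31229 (0.91 ± 0.14), and lower for CR45479 with Cyp4d14 (-0.67 ± 0.15). CR44030 and fuss differed by -1.01 ± 0.20 (adjusted p = 0.00722, or 0.0644 without both libraries numbered 3). The gene fuss was at 0.602 and 1.01 CPM (0.76 ± 0.20, edgeR adjusted p = 0.0129, or 0.0519 without wildtype replicate 3). The other 5 lost the ratio call when some single libraries were left out. CR46093 with BRWD3 (0.63 ± 0.15) had an adjusted p of 0.0544 without nub1 replicate 2 and 0.0546 without wildtype replicate 1. CR44690 with Cyp4d2 (0.56 ± 0.16) had 0.0692 to 0.0723 without nub1 replicate 1 or 2 or wildtype replicate 1, and CR44807 with pippin (0.48 ± 0.14) 0.0634 to 0.0933 without nub1 replicate 1 or 2 or wildtype replicate 1 or 3. CR43468 with Lfg (-1.0 ± 0.27) had 0.0601 to 0.0755 without nub1 replicate 2 or wildtype replicate 2 or 3, and CR45270 with Dhit (-1.0 ± 0.31) 0.0848 to 0.13 without any 1 library other than nub1 replicate 1.

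**Figure D5:**
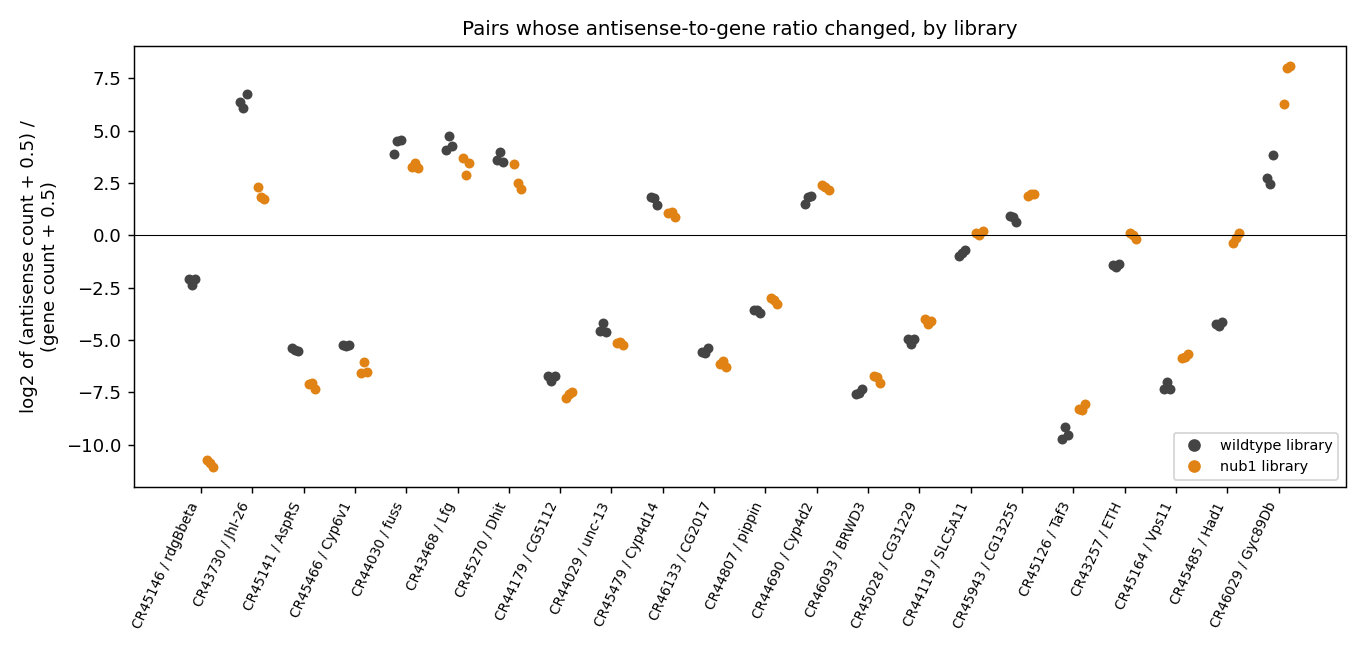
Log2 ratio of antisense RNA to overlapped gene counts, each plus 0.5, in each library for the 22 pairs whose ratio was called, 11 higher and 11 lower. Wildtype and nub1 points do not overlap in these pairs. CR45485 with Had1 rose by 4.11 and CR43730 with JhI-26, a gene with few reads, fell by 4.43.

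Several of the RNAs lie beside each other. On X, CR45479 and CR44690 share 39 bases and are listed beside the cytochrome P450 genes Cyp4d14, Cyp4d2 and Cyp4ae1. Here Cyp4d2 fell from 8.18 to 4.94 CPM (-0.73 ± 0.11), while Cyp4d14 (1.99 and 1.76 CPM) and Cyp4ae1 (0.150 and 0.199 CPM) did not pass the test. On 2R, CR43469, CR43468 and CR45141 lie within a short stretch that also holds Balat, Lfg and AspRS. The first 2 of these RNAs rose and CR45141 fell. Lfg rose from 0.202 to 0.515 CPM (1.33 ± 0.30, adjusted p = 0.00591). Reads of such neighbours may be mixed too.

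Around the 64 RNAs, 262 genes that lie within 10 kb without overlapping the RNA were tested, and 113 of them were called, 43.1% against the 48.3% of all genes. Beside swi2, a few of these changed strongly next to an RNA that did not. The collier gene kn, a wing vein and haemocyte transcription factor, lies 1355 bases from CR42254 and fell from 55.2 to 5.33 CPM (-3.38 ± 0.06), and Hsp67Bc lies 5663 bases from CR43481 and fell from 5.38 to 0.497 CPM (-3.45 ± 0.24). CG8419 lies 873 bases from CR44119, which rose, and fell from 0.779 to 0.123 CPM (-2.65 ± 0.24). These neighbours were chosen after their values were seen.

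Genes that process double-stranded RNA and make small RNAs were listed, since antisense pairs can enter these pathways. Of 14 genes, all tested, 7 rose and 3 fell, where 24.4% of all genes tested were called higher and 23.9% lower, with a median log2 fold change of 0.07 against -0.00 over all genes. AGO2, the Argonaute protein of short interfering RNAs, rose from 366 ± 5.86 to 504 ± 9.40 CPM (0.46 ± 0.03, adjusted p = 2.32e-06). Its loading partner r2d2 rose by 0.17 ± 0.03 and the double-stranded RNA binding gene stau by 0.14 ± 0.03, and Hen1, which methylates small RNAs, by 0.27 ± 0.07. The gene blanks, whose double-stranded RNA binding protein is known from the testis, had 2, 3 and 6 reads in wildtype and 195, 72 and 132 reads in nub1 libraries (4.93 ± 0.60, adjusted p = 0.000551). Lower were pasha (-0.28 ± 0.03), the partner of drosha in the microprocessor, and the RNA helicase mle (-0.10 ± 0.03) and Zn72D (-0.10 ± 0.03), which are known to act in dosage compensation and RNA editing.

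Calls on 4 genes of this list depended on single libraries. Dcr-1 (0.11 ± 0.03, adjusted p = 0.0309) had 0.0781 to 0.104 without nub1 replicate 3 or wildtype replicate 2 or 3. The adjusted p of drosha, 0.0457, was 0.0571 to 0.134 without any 1 library, 0.068 with no filter and 0.0957 with DESeq2. For mle it was 0.056 without nub1 replicate 1 and 0.0613 without wildtype replicate 1, and for Zn72D 0.0511 without nub1 replicate 2. With library sizes alone as the scaling it was 0.102 for mle and 0.0648 for Zn72D. Dcr-2, AGO1, loqs and Adar did not pass the test, with values of -0.03 to 0.07.

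Genes of RNA decay, which degrades many non-coding transcripts, mostly did not pass the test. Of 13 genes, 2 rose and 1 fell, where 48.3% of all genes tested were called, with a median log2 fold change of -0.03. The exosome gene Rrp4 rose from 35.9 to 46.3 CPM (0.37 ± 0.04, adjusted p = 0.000178), the helicase gene tst rose by 0.10 ± 0.03, and the exosome gene Mtr3 fell by 0.17 on the log2 scale (adjusted p = 0.00571). Leaving out nub1 replicate 3 left 1 higher and 5 lower, as tst had an adjusted p of 0.0517 and Dis3, Rrp40, Rrp42 and Ski6 passed the test at 0.0474, 0.0315, 0.0221 and 0.022. Leaving out wildtype replicate 1 gave 2 lower, with Rrp42 at 0.0343.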

How the data were processed

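The authors deposited raw read counts per gene for 3 wildtype and 3 nub1 RNA libraries, with no normalization. Per the submitters' processing notes, bcl2fastq, HISAT2, featureCounts, Bowtie2, deepTools and the build dm6 were used, with no roles. Strand, multi-mapping reads and the annotation release are items whose settings were not given in the sources used here.

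Of 17807 IDs 17710 matched a symbol and 17661 a position in RefSeq's Release 6 table, which gives gene spans but no strand or exons as used here. Overlap was therefore read from spans (1 base or more), and the antisense orientation comes from the gene's name, a change from the planned opposite-strand rule. For the same reason the planned comparison of counts per base within exons was replaced by counts per pair, and no sequences are printed.

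The 9186 genes kept by filterByExpr (by group) entered 1 fit in edgeR after TMM scaling (quasi-likelihood, glmQLFit robust and glmQLFTest) with a term for genotype alone. Adjustment was by Benjamini-Hochberg, and a call needed an adjusted p under 0.05. The SE is the log2 fold change divided by the square root of F. Ratios were tested with limma. The software was edgeR 4.0.16, limma 3.58.1 and DESeq2 1.42.0 in R 4.3.3. The code was tested on simulated counts. Where a group had no reads, 3 counts over that group served as the floor of a fold, and floors and intervals cover counting error only.

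Named in full are the 10 RNAs with the highest CPM, per direction the 10 largest called changes without overlap of groups and the 5 largest ratio changes, and up to 4 called genes per list and direction with the smallest adjusted p. The other RNAs and genes are named to account for all 64. The RNAs, lists and tests were chosen with earlier results of these data known. Alternatives were other scalings, filters, thresholds, tests, pseudocounts and overlaps, a replicate block, and leaving out libraries.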

Additional observations from a re-analysis of the deposited data

How the results depend on the processing

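Of the 32 calls on antisense RNAs, 24 were kept under all 15 alternatives that tested them, 10 higher and 14 lower, and none of the 32 called values changed sign. Of the 22 called ratios, 14 were kept under all 12 alternatives, 8 higher and 6 lower. With the 2-fold rule 6 RNAs rose and 7 fell. With a threshold of 100 counts, which takes in 110 RNAs, 23 rose and 28 fell, and with 1000 counts, which leaves 30, 7 rose and 14 fell. Leaving out both libraries numbered 3 left 6 lower ratios of the 64 RNAs and 16 of all pairs, and 1 RNA decay gene higher and 4 lower. With library sizes alone as the scaling, 1 double-stranded RNA gene was lower, and 2675 genes rose and 1815 fell over all genes, where TMM gave 2239 and 2195. With no filter 2 RNA decay genes were lower. The cause of these moves was not tested.

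Leaving out 1 library gave 11 to 14 higher and 15 to 17 lower antisense RNAs, and 8 to 11 higher and 9 to 11 lower ratios. For the RNA decay genes it gave 1 to 2 higher and 1 to 5 lower.

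Whether replicate numbers pair the libraries is not settled. Deviations of same-numbered libraries correlated at 0.04, 0.03 and 0.25, and not every library correlated best with its own number. The value of the libraries numbered 3 was the highest of all combinations. Deviations of 3 libraries from their own mean cannot decide this. With the replicate number as a block, 13 antisense RNAs rose and 20 fell, 10 ratios were higher and 9 lower, 2451 genes rose and 2437 fell, and 3 RNA decay genes were lower. The block took CR44029 (0.00437) past the test and the ratios of CR43468 (0.0679), CR44690 (0.0667) and CR45270 (0.0533) out of it. It also took 6 overlapped genes past the test, which left 16 higher and 16 lower. These were CG9593 (0.000785), Hsp67Ba (0.00504), CG33978 (0.0135), CG3625 (0.0174), Vps11 (0.0289) and Nap1 (0.0332).

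Only spans were compared, so pairs that share no exon count as overlapping.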
